A study of Mus musculus with 8 samples.

Results

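The microRNAs (miRNAs) mmu-miR-449a, mmu-miR-449b, mmu-miR-449c, mmu-miR-34a and mmu-miR-34c, written below without the mouse prefix, make up 5 of the 611 mouse miRNAs on the arrays of this study. They were chosen by name, as miR-449a and the relatives grouped with it by seed, after miR-449a had been seen to fall between embryonic day 13 (E13) and embryonic day 16 (E16). The stage contrast of the family is therefore a description, and no test of it is given for any member. The samples were basal progenitors, the dividing neurogenic cells of the cortex that lie away from the ventricle, isolated by FACS from mouse brain cortex. All sample descriptions carry the mark WT, and the labels give no treatment and no marker for the sorting gate. Each stage had 4 biological replicates with 1 array each (n = 4), taken from 3 litters per stage, so that replicates of a stage can share a litter.

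A miRNA guides silencing proteins to messenger RNAs, mainly through its seed, the bases near its 5′ end that pair with the target. The miR-34 and miR-449 miRNAs have the same seed and so are predicted to share targets, among them cell cycle genes. miR-34a is a transcriptional target of p53. The miR-449 miRNAs and miR-34b and miR-34c are best known from multiciliated epithelia, including the choroid plexus of the brain, and members of both groups have been linked to spindle orientation in cortical progenitors of mice.

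The mature sequences are shown because the family is defined by them. Of the 5 members, 3 have a mature entry in the RefSeq table used (GRCm38.p6), and they are given 5′ to 3′ with the seed, bases 2 to 8, in capitals, together with miR-34b-5p, a relative that the array also carries.
miR-449a: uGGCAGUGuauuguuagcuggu
miR-449c: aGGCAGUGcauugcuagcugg
miR-34a: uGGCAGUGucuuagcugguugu
miR-34b-5p: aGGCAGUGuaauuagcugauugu
Only these 4 of the 1679 distinct mature names in that table carry this seed. Outside the seed the sequences differ to unequal degrees. Compared position by position from the 5′ end, miR-449a matched miR-449c at 18 of 21 positions (85.7%), miR-34a at 15 of 22 (68.2%) and miR-34b-5p at 10 of 22 (45.5%).

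The probes matter here because relatives with 1 seed could bind each other's probes. The longest probes of the 3 members with an entry are given 5′ to 3′, with the bases that pair with the seed in capitals.
miR-449a probe: accagctaacaataCACTGC
miR-34a probe: acaaccagctaagaCACTGC
miR-449c probe: ccagctagcaatgCAC
The miR-449a probe has 20 bases and pairs with bases 3 to 22 of its miRNA, so that most of its length lies outside the seed. Its longest unbroken run of pairing was 9 bases with miR-34a, past the seed, and 7 bases with miR-449c. The run with miR-449c is short because single mismatches break it, although miR-449a and miR-449c match at 18 of 21 positions (85.7%). The miR-34a probe, also of 20 bases, paired with at most 9 bases in a row of miR-449a. The 4 miR-449c probes have 13 to 16 bases and reach at most 3 seed bases. Cross-hybridisation itself was not tested, and since probes differ in length and base composition, no level of 1 miRNA is set against that of another.

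The members come from 3 loci. In mm9, the build of the array files, the miR-449a probe matches chr13:113827760-113827778, the miR-449b probe chr13:113827640-113827656 and the miR-449c probe chr13:113826222-113826236, all on the plus strand by the order of their coordinates. The gap between the miR-449b and miR-449a matches is 103 bases, and that between miR-449c and miR-449b 1403 bases. Each interval printed here is shorter than its probe (a span of 19 for the miR-449a probe of 20 bases), so positions and gaps are approximate. The RefSeq hairpins of all 3 lie within Cdc20b, a gene known to host the miR-449 cluster in an intron. miR-34a matches chr4:149442585-149442603, and its hairpin overlaps no other RefSeq gene. miR-34c matches chr9:50911155-50911173 on the minus strand, 508 bases from miR-34b-5p, and the hairpins of this pair overlap Hoatz and Btg4.

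Signals are background-subtracted intensities, which can fall below 0, averaged over the spots of a probe. The scanner software flags each spot that is well above background, and a probe was given this status where a share of at least 0.5 of its spots had the flag. For comparisons, signals were divided by each array's 75th percentile over the 126 probes well above background on all arrays and put on a log2 scale (log2 scaled signal), with a floor of -5.96. That percentile ran from 109 to 748, and 76 to 205 miRNAs were well above background per array. E16 replicate 4 was the dimmest array on both counts. Negative control spots averaged 1.40 to 2.94 per array. Position and stage cannot be told apart, since row 2 of the slides held the E13 arrays and row 1 the E16 arrays. Slide 2 held 2 arrays of each stage, slide 3 held 2 of E13 and E16 replicate 4, and slide 1 held E16 replicate 1 alone.

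miR-449a was measured at both stages and was lower at E16. Its brighter probe gave signals of 65.0, 96.1, 172 and 130 in E13 replicates 1 to 4, and of 41.8, 43.4, 21.9 and 2.37 in E16 replicates 1 to 4. The lowest E13 array was thus above the highest E16 array before any scaling, although the E16 group held both the brightest arrays of the study and the dimmest. Every spot of this probe not marked as an outlier had the flag in the 4 E13 replicates and in E16 replicates 1, 2 and 3. On E16 replicate 4 none of 10 spots was, and they ran from -0.961 to 5.49, around the negative control mean of 1.40 on that array.

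The unscaled mean of miR-449a was 116 ± 45.8 at E13 and 27.4 ± 19.3 at E16 (SD, n = 4 each). On the log2 scaled signal the E13 arrays read -1.32, -1.72, -1.51 and -1.18 and the E16 arrays -3.86, -4.11, -3.69 and -5.52. The groups did not overlap, and the E16 group was the more spread (SD 0.83 against 0.24). The difference of the means, E16 minus E13, was -2.86 (SE 0.38 from the limma fit across all tested miRNAs), or 7.27-fold higher at E13. Without E16 replicate 4, where miR-449a was at background, the difference was -2.39, or 5.25-fold. In bulk RNA of sorted cells, fewer cells that carry a miRNA and less of it per cell cannot be told apart.

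For comparison, 51 of the 153 miRNAs tested with limma passed a Benjamini-Hochberg adjusted p of 0.05 (33.3%), 40 of them lower (26.1%) and 11 higher at E16 (7.19%), and the groups separated downward without overlap in 47 (30.7%). The 47 include miR-449a itself. The lower calls include miR-433, miR-153, miR-541, miR-431 and miR-370, which met the filter on E13 arrays alone. Each lay at the floor on all 4 E16 arrays, so filter and floor favoured such a call. Of the 5 members only miR-449a and miR-34a are among the 153, and of this pair miR-449a had no overlap. miR-449a was picked from this contrast, and nothing is read from its place among the 153. The median difference of all tested miRNAs was -0.40. Relative to that median miR-449a differed by -2.46, and by the same -2.46 when arrays were scaled on all mouse probes. There the median moved to 0.42 and miR-449a itself read -2.04. Such a change of scaling shifts all miRNAs of an array alike, so the equal values are no separate result.

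The second miR-449a probe, 1 base shorter, gave the same order of stages. It read 18.9, 24.8, 43.2 and 34.5 at E13 and 10.1, 9.63, 5.53 and 0.995 at E16. All 39 of its E13 spots were well above background and 8 of its 37 E16 spots, 5 on replicate 1 and 3 on replicate 2. Its log2 difference of -2.54 (SD 0.29 at E13 and 0.14 at E16, n = 4 each) is not exact, because 2 E16 arrays lay at the floor. Within slide 2 the difference of the brighter probe was -2.38, and within slide 3 it was -4.17. The only E16 array of slide 3 is replicate 4, which did not measure miR-449a above background, so that this value is not exact. Set against the lowest signal well above background on that array, miR-449a was at least 4.53-fold higher in the E13 arrays of slide 3.

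**Figure D1:**
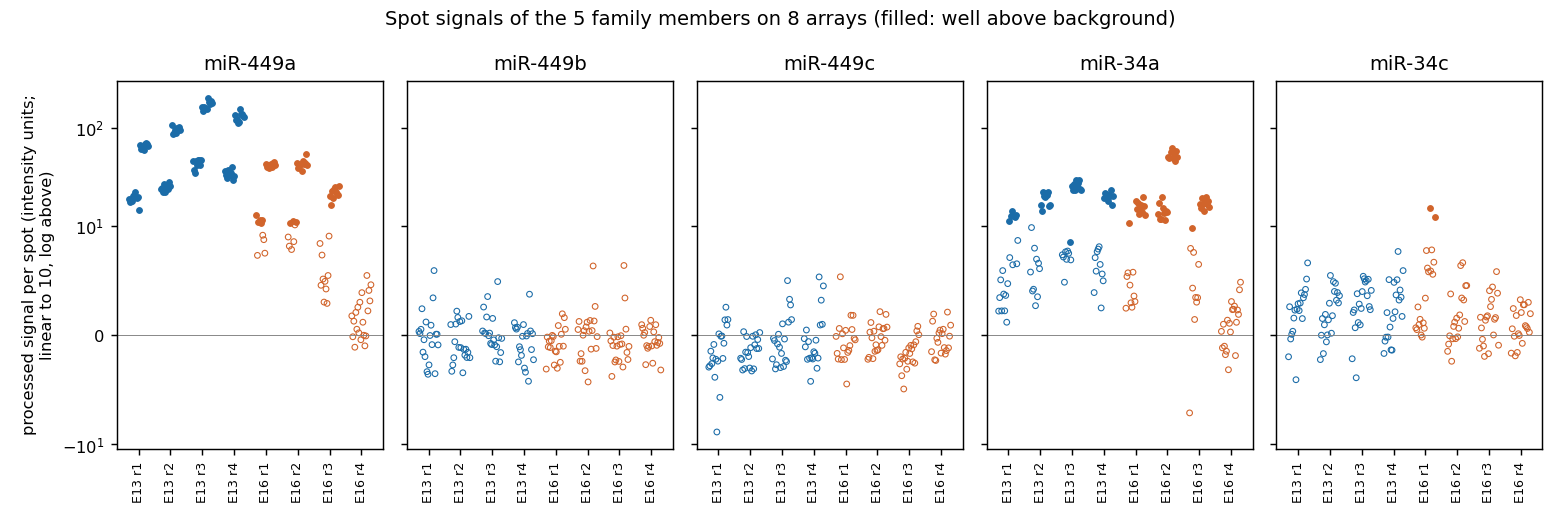
Processed signal of every spot of the 5 members on the 8 arrays (intensity units, linear up to 10 and logarithmic above; outlier spots left out), with filled points for spots well above background. The 2 bands of miR-449a and of miR-34a are their 2 probes. miR-449a is filled on 7 arrays and lower at E16, miR-34a is filled on 7 arrays with no such step, and miR-449b and miR-449c have no filled spot.

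The 2 miRNAs next to miR-449a in Cdc20b were not measured above background. None of the 160 spots of miR-449b used and none of the 157 spots of miR-449c was well above it on any of the 8 arrays. Each has 4 probes, and the signal of a probe on an array lay between -2.09 and 1.80 for miR-449b and between -3.62 and 3.01 for miR-449c. A further miR-449c spot, marked as an outlier and so left out, read 32.1 on E16 replicate 4 and was well above background. For miR-449b the E13 arrays reached 1.01 and the E16 arrays 1.80, and for miR-449c 3.01 and 0.704. Both were thus near the negative control spots at E13, the stage at which miR-449a was well above it on every array. No fold can be given for them, and at this signal a level below background cannot be told from none.

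miR-34a, the p53-responsive relative from chromosome 4, was also measured at both stages, and its groups overlapped. Its brighter probe gave 10.6, 19.0, 25.9 and 20.2 in E13 replicates 1 to 4 and 15.8, 53.1, 17.1 and 2.32 in E16 replicates 1 to 4. Before scaling, the highest and the lowest of the 8 arrays were both E16, replicates 2 and 4. Of its spots, 36 of 40 were well above background at E13 and 29 of 39 at E16, with none of 10 on E16 replicate 4.

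The unscaled mean of miR-34a was 18.9 ± 6.32 at E13 and 22.1 ± 21.7 at E16 (SD, n = 4 each). As log2 scaled signals, the E13 arrays read -3.94, -4.06, -4.25 and -3.86, and the E16 arrays -5.26, -3.82, -4.04 and -5.55. E16 replicate 2 lay above the E13 range, E16 replicate 3 within it, and E16 replicates 1 and 4 below it. The difference was -0.64 (SE 0.38), or 1.56-fold higher at E13, smaller than the E16 spread (SD 0.87), and -0.28 without E16 replicate 4. Relative to the median of all tested miRNAs it was -0.24, and it was again -0.24 with scaling on all mouse probes, a common shift that took the difference itself to 0.18. With normexp correction (offset 50, then quantile normalization) the difference was 0.03, or 0.06 relative to the median. An offset that large beside these signals compresses log2 differences. Within slide 2 it was 0.07, or 0.35 relative to the median. Within slide 3 it was -1.50, which is not exact, because the only E16 array there did not measure miR-34a above background.

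The shorter miR-34a probe was well above background by the rule used on E16 replicate 2 alone. It read 3.46, 5.79, 7.19 and 6.02 at E13 and 4.69, 14.3, 4.05 and -0.433 at E16, with 1 of 39 and 12 of 40 spots well above background. Of those 12, 10 were on E16 replicate 2, the array on which the brighter probe was also at its highest.

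**Figure D2:**
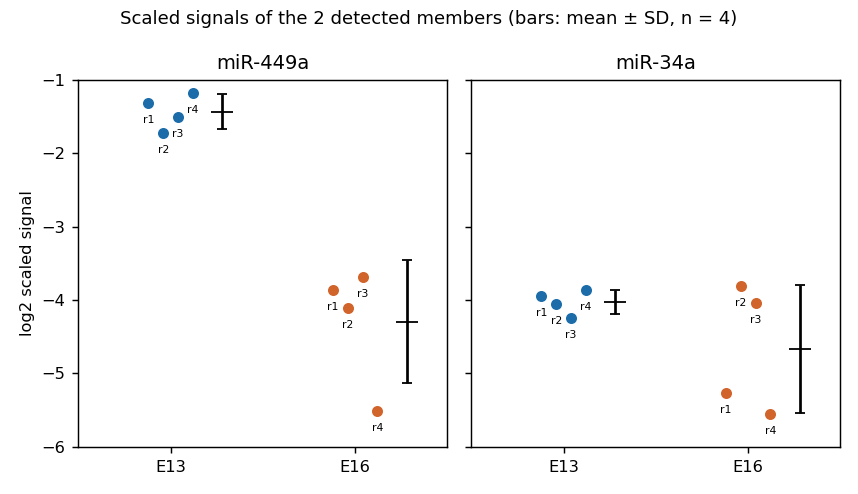
Log2 scaled signal of miR-449a and miR-34a per array, with replicate numbers beside the points and bars for the mean and SD (n = 4 per stage). The 4 E16 points of miR-449a lie below its 4 E13 points (means -4.29 and -1.43), whereas those of miR-34a straddle the E13 range (means -4.67 and -4.03).

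miR-34c, transcribed beside miR-34b and known from multiciliated cells, was not well above background on any array by the rule used. Its longer probe averaged 3.90 ± 0.375 at E13 and 3.75 ± 2.72 at E16 (SD of array signals, n = 4 each). It read 3.67, 3.49, 4.24 and 4.20 at E13 and 7.67, 3.25, 2.64 and 1.46 at E16. The 2 spots of 158 that were well above background were both on E16 replicate 1, and the shorter probe had none. The other miRNAs of these hairpins on the array, miR-34b-3p, miR-34b-5p and the star strand miR-34c*, had 0 of 467 spots well above background, with signals from -2.95 to 3.82. Of the family, therefore, 2 of 5 members passed the filter of being well above background on at least 4 arrays, and both met it on 4 E13 and 3 E16 arrays.

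Both measured members can be followed within each array, where the scaling cancels. The log2 gap between miR-449a and miR-34a, centred on its mean over the 8 arrays because only its change can be read, was 1.14, 0.85, 1.25 and 1.20 in E13 replicates 1 to 4. In E16 replicates 1 to 4 it was -0.08, -1.78, -1.13 and -1.45, the last not exact because both signals were at background. All 4 E13 arrays lay above all E16 arrays, and E16 replicate 1 was the nearest to them, the array on which miR-34a was low as well. The gap changed by -2.22 between stages (SD 0.18 at E13 and 0.73 at E16, n = 4 each), and by -2.11 without E16 replicate 4, on which both members were at background. Because miR-449a was picked for its fall at E16, the direction of this change and the separation of the stages are no separate result. A change of the gap shows that the pair moved unequally and not that either stood still.

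Profiles most like each measured member were sought among the other 152 tested miRNAs, as the smallest root-mean-square distance between log2 profiles over 8 arrays, each centred on its own mean. For miR-449a the 5 nearest were miR-410 (0.398), miR-300 (0.456), miR-127 (0.498), miR-434-3p (0.511) and miR-379 (0.559), against a median distance of 1.39. All 5 are placed on chromosome 12 by the array files and belong to the imprinted Dlk1-Dio3 region, whereas miR-449a is on chromosome 13. Their differences, E16 minus E13, ran from -2.40 (SE 0.205) for miR-410 to -1.95 (SE 0.332) for miR-434-3p. A like profile fixes that direction, so it is no separate result and no test is given. Within slide 2 the 5 read -2.40 to -1.84. The -2.40, of miR-379, is not exact, because it was at the floor on E16 replicate 2. All 5 were at the floor on E16 replicate 4, the only E16 array of slide 3, so that the differences there (-3.00 to -2.60) are not exact. With normexp correction the 5 read -0.55 to -0.42, and in the deposited value table miR-434-3p read -0.50. miR-34a ranked 38 of 152 by distance from miR-449a (1.20).

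For miR-34a the nearest were miR-17 (0.325), miR-335-5p (0.407), miR-210 (0.436), miR-374 (0.443) and miR-20a (0.472), against a median of 0.688. miR-17 and miR-20a belong to the proliferation-linked miR-17 cluster, and miR-210 is the best known hypoxia-induced miRNA. The files place miR-17 on chromosomes 14 and X, miR-335-5p on 6, miR-210 on 7, miR-374 on X and miR-20a on 14. None of these 5 is on chromosome 4 with miR-34a. Their differences ran from -1.07 (SE 0.314) for miR-335-5p to -0.47 (SE 0.177) for miR-20a. They were smaller within slide 2 (-0.70 to -0.11) than within slide 3 (-1.97 to -0.92), where the only E16 array is replicate 4.

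**Figure D3:**
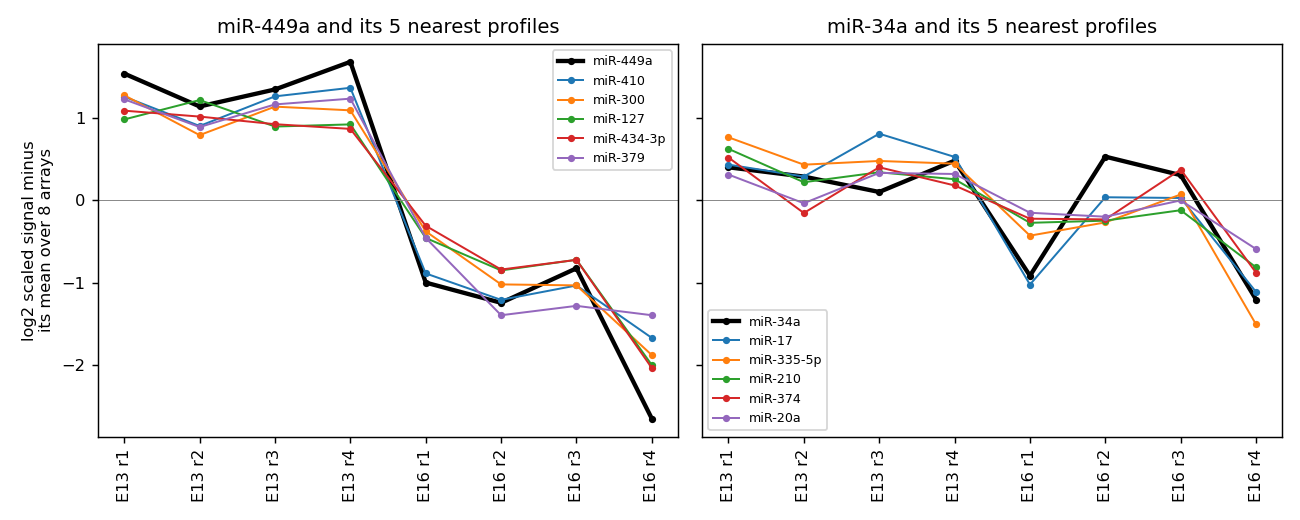
Log2 scaled signal minus its mean over the 8 arrays, by array, for miR-449a (left) and miR-34a (right) in black and the 5 tested miRNAs with the smallest distance to each in colour. The left profiles step down between E13 and E16. Those on the right are all lowest at E16 replicate 4, and miR-34a and miR-17 also dip clearly at E16 replicate 1.

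miR-34a is 1 of several miRNAs tied to p53, and 9 others were listed (miR-107, miR-143, miR-145, miR-192, miR-194, miR-215, miR-15a, miR-16 and miR-605). Of the 8 found on the array, 3 were tested, and 1 passed as lower, 0 as higher and 2 did not pass (26.1% lower and 7.19% higher over all tested miRNAs), with a median difference of 0.30 against -0.40 over all tested miRNAs. miR-107 was 1 of the 40 lower calls (-0.41, SE 0.139, limma adjusted p = 0.047). miR-16 differed by 0.32 (SE 0.187, limma adjusted p = 0.20) and miR-15a by 0.30 (SE 0.284, limma adjusted p = 0.43). These last values turned on 1 array, since without E16 replicate 4 the fit gave 0.54 for miR-16 (limma adjusted p = 0.0096), 0.58 for miR-15a (limma adjusted p = 0.045) and -0.28 for miR-107 (limma adjusted p = 0.085). miR-107 also missed the threshold when any 1 of the E13 arrays was left out (limma adjusted p 0.10 to 0.15), without E16 replicate 2 or 3 (limma adjusted p 0.088 and 0.097), and within slide 2 (-0.40, limma adjusted p = 0.11). miR-192 was above background on 1 array of E13 and 2 of E16, and miR-143, miR-145, miR-194 and miR-215 on none.

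Because miR-449 is abundant in choroid plexus and other ciliated epithelia, miRNAs of choroid plexus and of epithelia, not only ciliated ones, were read on the same arrays. None of the 8 listed (miR-204, miR-211, miR-200a, miR-200b, miR-200c, miR-141, miR-429 and miR-203) was well above background on any array. Their summed signal was -3.73 to 7.57 at E13 and -4.70 to 8.69 at E16. miR-204, a choroid plexus miRNA, lay between 1.03 and 3.71 at E13 and between -0.248 and 5.01 at E16, and its relative miR-211 between -2.36 and 0.498 and between -0.404 and 0.291. miR-203, a miRNA of skin epithelium, reached the highest signals of the list, 1.70 to 7.37 at E13 and -0.181 to 7.90 at E16.

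Among markers of other cells, the 5 neural miRNAs were all found, 4 of them on all 8 arrays (miR-9, miR-9*, miR-124 and miR-128), with a summed signal of 2320 to 8450 at E13 and 1230 to 11600 at E16. Of these 5, only miR-92b passed as lower at E16 (-1.59, SE 0.192, limma adjusted p = 0.00019, 3 arrays at the floor), against 26.1% over all tested miRNAs. With normexp correction miR-92b missed the threshold (-0.24, limma adjusted p = 0.058). Erythroid (3), endothelial (2) and white blood cell (4) miRNAs were well above background on no array, with summed signals between -2.56 and 3.07. The pair of oligodendroglial miRNAs, miR-219 and miR-338-3p, summed to 38.8 to 111 at E13 and 10.5 to 161 at E16, and neither passed the test. The part of these miRNAs in the miR-449a values was not tested.

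**Figure D4:**
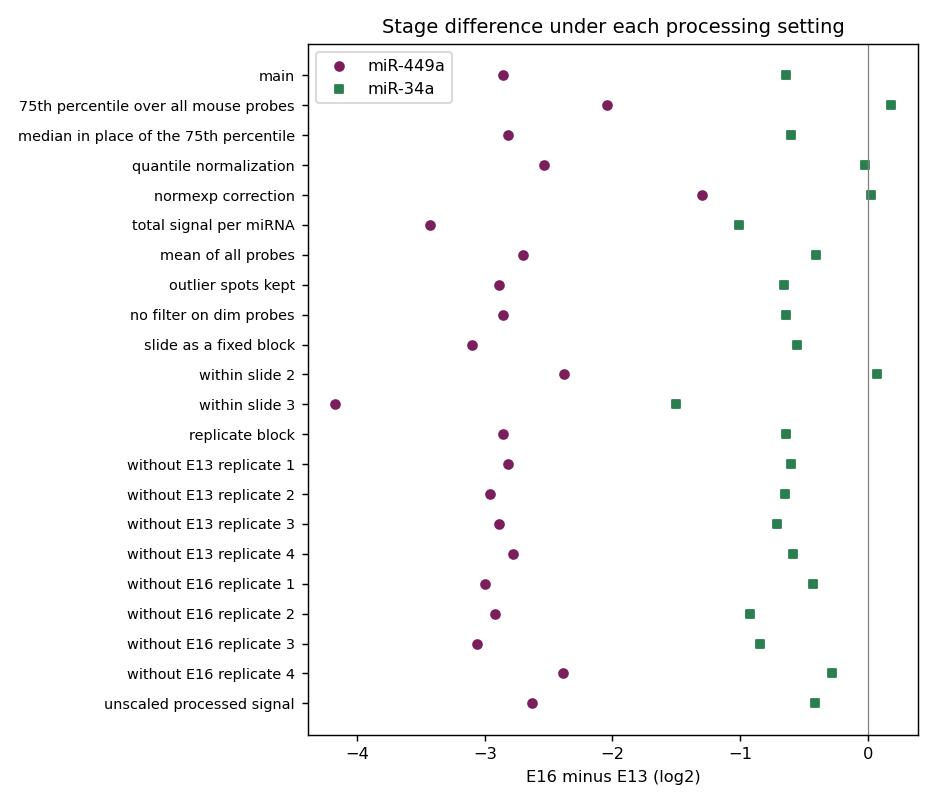
Difference E16 minus E13 (log2) of miR-449a (circles) and miR-34a (squares) under each processing setting, with a line at 0. All values of miR-449a lie between -4.17 and -1.30, and those of miR-34a between -1.50 and 0.18, on both sides of 0; the lowest of each, within slide 3, is not exact.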

How the data were processed

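Per the labels' protocols, total RNA carried a cyanine-3 label on one-colour miRNA arrays. Agilent Feature Extraction 10.7.3.1 produced the scanner files, per the file headers and the submitters' processing notes. The deposited scanner files give spot intensities, not scaled between arrays, a background-subtracted processed intensity, a total signal per miRNA and 0 or 1 flags for spots well above background and outliers as other columns. A deposited value table holds log2 values for 86 miRNAs and was used only as an alternative, and the steps behind it are not given in the sources used here.

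Here, control spots and outlier spots (2.01% to 3.86% per array) were left out, and no spot was saturated. The spots of each of 1759 probes were averaged, each array was divided by its 75th percentile over 126 probes, signals were floored at percentile 1 of probes well above background, and log2 was taken. The probe with the highest mean stood for its miRNA. The 153 miRNAs well above background on at least 4 of 8 arrays were fitted with limma 3.58.1 in R 4.3.3, two-sided, with Benjamini-Hochberg adjustment over all 153 and a threshold of 0.05. The number of arrays limits the precision, and p-values rest on the spread between replicates that may share litters.

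The members, the lists and the rule for named miRNAs (members, their hairpin relatives, the 5 nearest profiles, up to 4 of each list by p, and markers) were chosen with earlier results of these data known. Replicate numbers were not taken to pair the samples across stages: the correlations of same-numbered deviations were -0.10, 0.07, 0.27 and -0.15. Alternatives covered scaling, background correction, probe rule, filter, slide and leaving out each array. Normexp correction added an offset of 50 before quantile normalization, which compresses the log2 differences of dim probes.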

Additional observations from a re-analysis of the deposited data

Results flagged for a closer look

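Among 38 groups of 4 arrays, 2 stages for each of 19 miRNAs named as measured, 4 had 1 array far from the other 3 by Dixon's ratio. Chance flags about 1 in 20 groups. No group was of a family member. For miR-379, near miR-449a in profile, E16 replicate 1 stood apart (ratio 0.879), with E16 values of -5.96, -5.96, -5.85 and -5.02, of which the lowest pair is at the floor. For miR-335-5p, near miR-34a, E13 replicate 1 was the highest (ratio 0.864; -3.34, -3.33, -3.29 and -3.01). E13 replicate 2 was the lowest for miR-20a (ratio 0.945; 1.32, 1.67, 1.68 and 1.69) and for miR-9 (ratio 0.831; 1.94, 2.35, 2.38 and 2.44). The cause was not tested.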

How the results depend on the processing

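miR-449a stayed lower at E16 under all 21 alternatives run (-4.17 to -1.30), 18 of them within its pooled replicate SD (0.61) of -2.86; the exceptions were scaling on all mouse probes (-2.04), normexp (-1.30) and slide 3 (-4.17, not exact). miR-34a reversed from -0.64 with scaling on all mouse probes (0.18), normexp (0.0252) and within slide 2 (0.0735), and read -1.50 within slide 3 (not exact). The percentile over all mouse probes fell among probes not well above background, which limits the values scaled by it. Scaling on all mouse probes moved the median of all tested miRNAs from -0.40 to 0.42. Relative to it miR-449a (-2.46) and miR-34a (-0.24) did not move, which such a common shift fixes in advance. Relative to the median, miR-449a read -1.26 with normexp, -2.1 within slide 2 and -3.41 within slide 3 (not exact). With 1 array left out, miR-449a ran from -3.06 to -2.39, miR-34a from -0.93 to -0.28 and the p53-linked median from 0.11 to 0.54 (0.54 without E16 replicate 4). Unscaled signals floored at 1, an alternative chosen after seeing the data, gave -2.63 and -0.41. Neither member has values on all 8 arrays in the deposited value table, and neither passes a filter that asks for all 8 arrays.

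The p53-linked median of 0.30 became 1.12 with scaling on all mouse probes, 0 without a filter and -0.57 within slide 3. In slide 3, miR-15a (-0.57) and miR-16 (-0.12) also reversed. With the common shift of scaling on all mouse probes so did miR-107 (0.41), miR-210 (0.10), miR-374 (0.18) and miR-20a (0.35). miR-374 reversed with quantile normalization (0.0634) and normexp (0.0434), and miR-335-5p in the value table (0.23).

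Of all tested miRNAs, 11 were higher and 40 lower. The higher count became 47 with scaling on all mouse probes, 20 with quantile normalization, 19 with normexp and 8 to 23 with 1 array left out (23 without E16 replicate 4). The lower count became 16 with scaling on all mouse probes, 11 in the value table, 10 of 75 tested when all 8 arrays had to be above background, 25 within slide 2, 88 within slide 3, whose lone E16 array is assumed to vary like the E13 pair, and 22 to 46 with 1 array left out (22, 24, 22 and 23 without E13 replicates 1 to 4). Counting an array with any spot above background put miR-34c on 1 array in place of 0. With the replicate number as a block, the fit gave 10 higher and 35 lower calls, -2.86 for miR-449a, -0.64 for miR-34a and 0.30 for the p53-linked median. miR-107 missed the threshold under the block (limma adjusted p = 0.11). The causes were not tested. Signals near background limit miR-34a, miR-34c, miR-449b and miR-449c; the epithelial list gave no value.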
